A study of Homo sapiens with 12 samples.

Results

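A375 and SKMel28 are established human melanoma cell lines, both known to carry an activating mutation of the BRAF kinase. The comparison described here set sensitive A375 cells against sensitive SKMel28 cells, across all genes, with 3 libraries of each line, or 6 of the 12 libraries of the series. The libraries were chosen by their labels alone. The other 6 came from vemurafenib-resistant derivatives of the same lines, kept in 1 µmol/L of the drug, and are used only where named. Sensitive cells of both lines were cultured in DMEM with 10% fetal bovine serum, and no drug is given for them. RNA was poly(A)-selected and sequenced. The series as a whole concerns the IGF1 pathway and resistance to inhibitors of BRAF and of MEK. Each line stands for 1 tumour only. Nothing in the labels says that the 3 libraries of a line are separate cultures, and the p-values below therefore reflect the spread among these libraries, which may be technical.

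Melanoma arises from melanocytes, the pigment cells of the skin, which descend from the neural crest. The transcription factor MITF, switched on by SOX10 and PAX3, drives the enzymes and structural proteins of the melanosome, the organelle in which melanin is made. Melanoma cell lines are commonly placed between a melanocytic state, rich in MITF and its targets, and a dedifferentiated or invasive state with little MITF and much AXL, a receptor tyrosine kinase, and extracellular matrix.

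Libraries held 28496518 to 37721363 reads assigned to genes, and levels are given as CPM, the read count scaled to a common library size after TMM adjustment. Libraries of 1 line correlated at 0.991 to 0.994 on the log2 scale and libraries of different lines at 0.789 to 0.791. Of 26499 genes in the files, 15506 passed the filter on low counts, and 12860 of them (82.9%) differed between the lines at an edgeR adjusted p below 0.05. Higher in A375 were 6579 (42.4%), of which 3151 (20.3% of genes tested) differed at least 2-fold. Higher in SKMel28 were 6281 (40.5%), of which 3083 (19.9%) differed at least 2-fold. The median log2 fold change (A375 minus SKMel28) over all genes tested was 0.03 and its median size was 0.78. Since most genes passed the test, a call says little about any single list, and the shares of each list below are to be read against those of all genes. The 6 libraries did not overlap between lines for 12918 of the 15506 genes tested. A lack of overlap, where given below, is therefore common to most genes.

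A375 cells held almost no pigment gene transcripts and high levels of genes of the invasive melanoma state, of MHC class II genes and of several IGF binding proteins. SKMel28 cells held abundant MITF, pigment genes, fibronectin and mitochondrially encoded transcripts. Of genes called, 183 had no read in any A375 library and 342 had none in any SKMel28 library. At least 16-fold differences were called for 1023 genes higher in A375 and 635 higher in SKMel28.

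**Figure D1:**
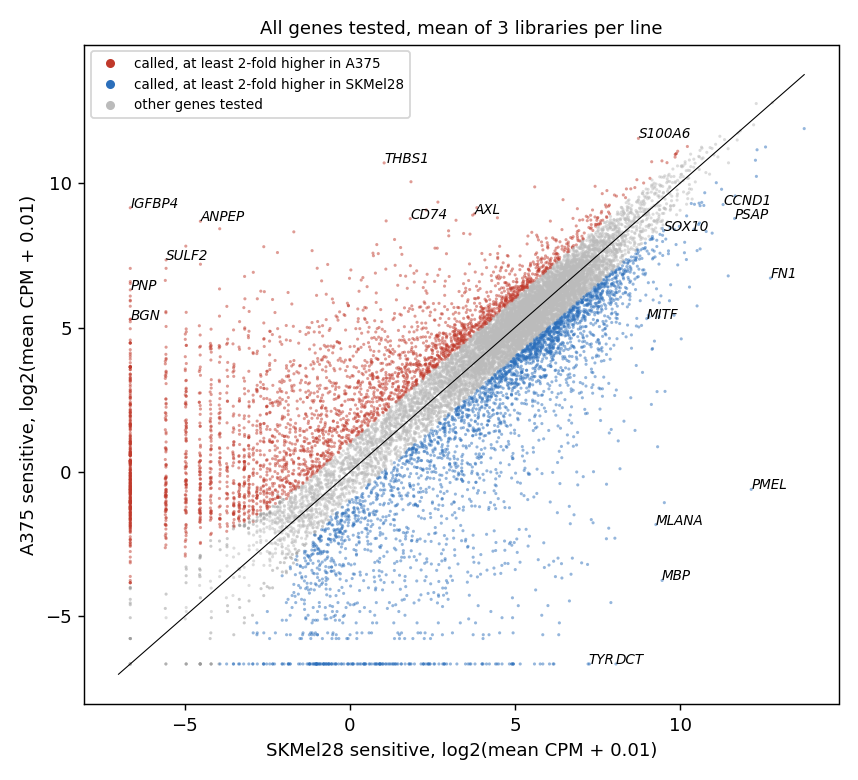
Mean CPM of each gene tested in A375 (vertical axis) against SKMel28 (horizontal axis), both as log2(mean CPM + 0.01) over 3 libraries. Red points are the 3151 genes called and at least 2-fold higher in A375, blue points the 3083 at least 2-fold higher in SKMel28, and points on the left and lower edges are genes with no read in 1 line.

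The regulators of the melanocyte lineage were lower in A375. MITF (chromosome 3, 69739435 to 69968337, plus strand, GRCh38) had 38.5, 40.8 and 39.5 CPM in the A375 libraries, against 499, 510.2 and 514 CPM in the SKMel28 libraries. The groups lay far apart, with a log2 fold change of -3.68 ± 0.04 (SE) and an edgeR adjusted p of 5.51e-47. SOX10 (chromosome 22, 37970686 to 37987422, minus strand), the neural crest factor that switches on MITF, was present in both lines, at 325, 319.6 and 332 CPM in A375 and 701, 706 and 757 CPM in SKMel28. It was lower in A375 without overlap (-1.15 ± 0.04, edgeR adjusted p = 6.78e-30). PAX3, the paired-box factor that acts with it, averaged 14.0 ± 0.108 CPM in A375 and 41.3 ± 2.46 CPM in SKMel28 (SD, n = 3 each). IRF4, an MITF partner at the tyrosinase gene, was close to absent from A375 at 0.0354 ± 0.0380 CPM, against 100.2 ± 3.77 CPM in SKMel28. SNAI2, the neural crest repressor also called Slug, had 0.309 ± 0.183 CPM in A375 and 159 ± 4.37 CPM in SKMel28.

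Of 18 regulators in the list, 16 passed the low-count filter, 3 (18.8%) were higher in A375 and 13 (81.2%) in SKMel28, all 13 at least 2-fold, against 42.4% and 40.5% of all genes tested. The median log2 fold change of those 16 was -3.27. ZEB2, which represses epithelial genes and belongs to the melanocytic programme, was also lower in A375, with 18.2 CPM in A375 and 199 CPM in SKMel28. The receptors EDNRB, which binds endothelins, and MC1R, which binds melanocortin, had log2 fold changes of -4.18 and -3.78. The 3 exceptions were TFE3 and TFEB, relatives of MITF that control lysosomal genes, and TFAP2B. TFE3 had 125 ± 4.19 CPM in A375 and 52.3 ± 1.11 CPM in SKMel28. TFEB was at 2.62 ± 0.286 CPM in A375 and 1.72 ± 0.556 CPM in SKMel28 (0.62 ± 0.23, edgeR adjusted p = 0.0131), and without SKMel28 replicate 3 its adjusted p was 0.114. TFAP2B had no read in SKMel28 and was at least 44.3-fold higher in A375, taking 3 reads over the 3 libraries as the floor, as in all such bounds below. Bounds, like shares of reads, cover counting error only. KIT and TFEC did not pass the low-count filter.

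Pigment genes were close to silent in A375. PMEL, the fibril protein of the early melanosome, had 0.428, 0.854 and 0.665 CPM in the A375 libraries, against 4362, 4557 and 4716 CPM in the SKMel28 libraries. DCT, the dopachrome tautomerase of melanin synthesis, had no read in any A375 library, against 263, 258 and 278 CPM in SKMel28, and was at least 9099-fold lower in A375. TYR, the tyrosinase that starts melanin synthesis, likewise had no read in A375, against 156, 138 and 151 CPM in SKMel28, at least 5071-fold lower in A375. PMEL lay below 1 CPM in every A375 library, and none of the 3 genes overlapped between lines, as was so for 12918 of 15506 genes tested. MLANA, the melanosomal antigen Melan-A, had 0.227, 0.427 and 0.166 CPM in A375, against 614, 619 and 613 CPM in SKMel28. TYRP1, the tyrosinase-related enzyme, had 0.126, 0.183 and 0.266 CPM in A375, against 218, 219 and 217 CPM in SKMel28. SLC24A5, a cation exchanger of the melanosome, had no read in A375 and 72.4, 69.6 and 71.7 CPM in SKMel28, at least 2436-fold lower in A375. All 3 were again separated without overlap. Also close to 0 in A375 were the transporter genes OCA2 (0.0102 ± 0.0176 CPM in A375, 57.3 ± 1.55 CPM in SKMel28) and SLC45A2 (0.194 ± 0.0997 CPM in A375, 260.2 ± 6.88 CPM in SKMel28), and TRPM1, the channel whose gene hosts a melanocytic microRNA (0.0168 ± 0.0291 CPM in A375, 81.2 ± 1.29 CPM in SKMel28).

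Of 27 pigment and melanosome genes tested out of 28, 2 (7.41%) were higher in A375 and 25 (92.6%) in SKMel28, 24 of the 25 at least 2-fold, with a median log2 fold change of -3.33. The shares of all genes were 42.4% and 40.5%. GPNMB, a glycoprotein of melanosomes and lysosomes, had 24.4 ± 1.59 CPM in A375 and 1047 ± 13.1 CPM in SKMel28. Smaller differences were found among parts of the vesicle traffic machinery that other cells share. MYO5A, the motor that carries melanosomes, had 77.9 ± 1.22 CPM in A375 and 225 ± 10.5 CPM in SKMel28, and AP3B1, a subunit of the AP-3 sorting adaptor, 66.2 ± 1.68 CPM in A375 and 81.6 ± 2.53 CPM in SKMel28. The 2 genes higher in A375 were HPS6 (43.5 CPM in A375, 18.6 CPM in SKMel28) and BLOC1S1 (38.2 CPM in A375, 26.2 CPM in SKMel28), which encode parts of the BLOC-2 and BLOC-1 complexes of organelle biogenesis. The PMEL span overlaps that of the cell-cycle kinase gene CDK2 in the annotation, and the names of the deposited files point to counting without regard to strand, so reads of these 2 genes are uncertain where they overlap.

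**Figure D2:**
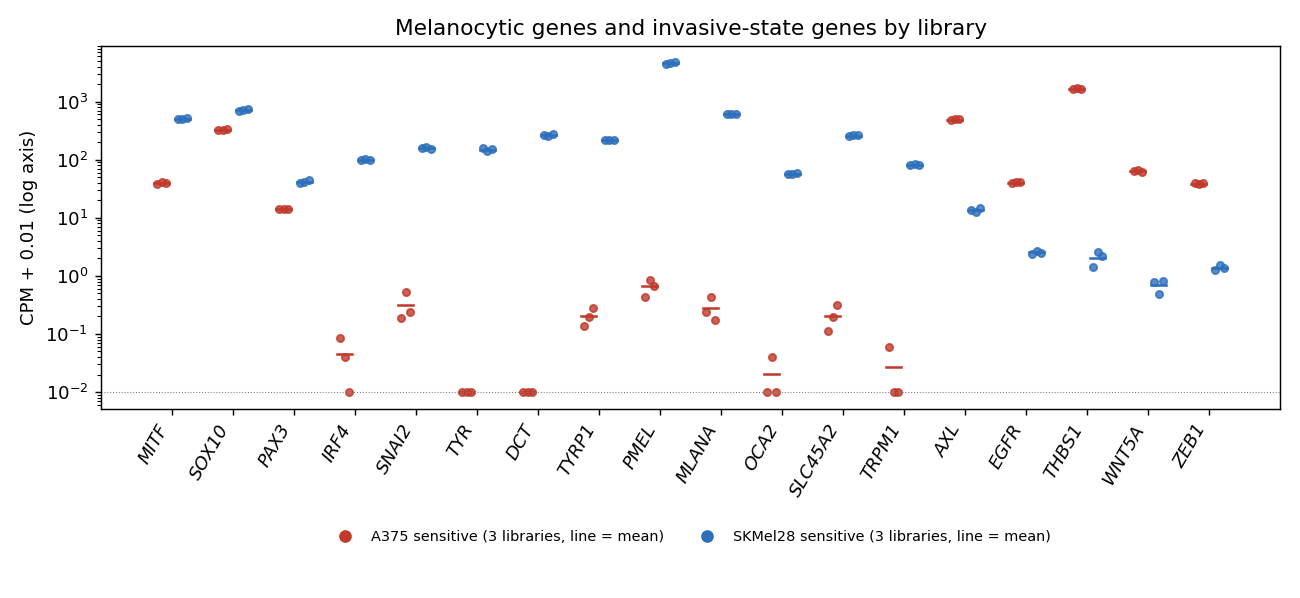
CPM + 0.01 on a log axis for 13 melanocytic genes (left) and 5 genes of the invasive state (right), with A375 in red left of SKMel28 in blue, 1 point per library and a line at the mean. MITF, SOX10 and PAX3 are present in both lines, the pigment genes lie below 1 CPM in A375 and between 56.1 and 4716 CPM in SKMel28, and AXL, EGFR, THBS1, WNT5A and ZEB1 are higher in A375.

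MITF and its relatives bind E-boxes, short DNA motifs, and favour CATGTG, the core of the M-box of pigment gene promoters, and CACGTG. The 250 bases before the start of pigment genes were therefore read from RefSeq (GRCh38.p14) and both motifs searched on both strands. Of the 27 called members, 21 were matched in the table, with 35 windows, some of which overlap where a gene has several starts. CATGTG or its reverse complement CACATG stood in 12 windows (34.3%) of 10 genes, against 9.42% of all 35116 promoters in the table. CACGTG, its own reverse complement, stood in 5 windows (14.3%), against 6.34% of all promoters. The 4 windows below belong to those of the 21 matched members that hold a motif and differ most between the lines. PMEL is not among the 21. They are given 5′ to 3′ on the gene's strand, the last base lying next to the start, with the motifs in capitals. The DCT window (chr13:94479683-94479932, minus strand) holds the motif in both orientations, its first letters 215 and 134 bases before the start. The window before the other DCT start in the table held neither motif. The TYR window (chr11:89177625-89177874, plus strand) holds it at 104 and 12 bases, the SLC24A5 window (chr15:48120740-48120989, plus strand) at 15 bases, and the OCA2 window (chr15:28099316-28099565, minus strand) at 153 bases before the start.
DCT: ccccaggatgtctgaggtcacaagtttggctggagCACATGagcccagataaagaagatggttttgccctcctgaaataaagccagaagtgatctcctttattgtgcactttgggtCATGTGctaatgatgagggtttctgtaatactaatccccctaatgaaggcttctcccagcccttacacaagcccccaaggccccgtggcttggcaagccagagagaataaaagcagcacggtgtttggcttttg
TYR: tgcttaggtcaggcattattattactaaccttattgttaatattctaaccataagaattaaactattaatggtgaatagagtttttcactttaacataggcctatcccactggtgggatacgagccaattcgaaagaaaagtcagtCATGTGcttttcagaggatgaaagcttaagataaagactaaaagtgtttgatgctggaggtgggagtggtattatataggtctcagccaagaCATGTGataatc
SLC24A5: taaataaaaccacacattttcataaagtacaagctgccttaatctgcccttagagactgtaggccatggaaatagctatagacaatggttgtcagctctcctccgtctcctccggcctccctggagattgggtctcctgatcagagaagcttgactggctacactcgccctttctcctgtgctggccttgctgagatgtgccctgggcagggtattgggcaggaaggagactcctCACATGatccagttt
OCA2: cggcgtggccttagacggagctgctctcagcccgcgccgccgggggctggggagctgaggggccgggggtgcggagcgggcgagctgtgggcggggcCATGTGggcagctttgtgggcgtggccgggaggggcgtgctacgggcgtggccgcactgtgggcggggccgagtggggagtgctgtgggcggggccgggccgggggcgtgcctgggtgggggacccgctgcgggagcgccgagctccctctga
These 4 genes had 0 to 0.0102 CPM on average in A375 and 57.3 to 266 CPM in SKMel28. A match of letters is a description of the sequence, and binding was not measured in these samples.

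Gene lists of melanoma cell states were divided in the same way. All 36 genes of the proliferative state, a list drawn from melanoma lines rich in MITF, were higher in SKMel28 (100%, against 40.5% of all genes), 34 of them at least 2-fold, with a median of -4.78. MBP, the myelin basic protein, had 0.126, 0 and 0.0665 CPM in A375, against 688, 679 and 735 CPM in SKMel28. BIRC7, the apoptosis inhibitor livin, had 0.0336 ± 0.0582 CPM in A375 and 239 ± 5.75 CPM in SKMel28, and ASAH1, the acid ceramidase, 23.1 ± 1.27 CPM in A375 and 597 ± 10.6 CPM in SKMel28. SIRPA, the receptor of the CD47 signal, had 19.0 CPM in A375 and 568 CPM in SKMel28. Glycogenin 2 (GYG2) and adenylyl cyclase 2 (ADCY2) had no read in A375 and were at least 2255-fold and 1024-fold lower there. Of 44 genes of the invasive state, 43 (97.7%, against 42.4% of all genes) were higher in A375 and 36 of them at least 2-fold, with a median of 2.85. The exception, the oncostatin M receptor gene OSMR, differed by -0.19 and lost its call with scaling by library size alone.

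AXL (chromosome 19, 41219203 to 41261766, plus strand) had 477, 499 and 496 CPM in the A375 libraries, against 13.8, 12.6 and 14.7 CPM in the SKMel28 libraries, a log2 fold change of 5.16 ± 0.05 (edgeR adjusted p = 4.26e-48). THBS1, the matrix protein thrombospondin-1, had 1639, 1709 and 1634 CPM in A375, against 1.43, 2.55 and 2.15 CPM in SKMel28, a ratio of means of 812. CDH13, the cadherin without a cytoplasmic tail, had 113, 119.9 and 122 CPM in A375, against 1.37, 1.85 and 1.89 CPM in SKMel28. None of the 3 overlapped between lines. WNT5A, the ligand of non-canonical Wnt signalling, had 63.5 ± 1.63 CPM in A375 and 0.684 ± 0.186 CPM in SKMel28. The zinc-finger repressor ZEB1 had 38.7 ± 0.574 CPM in A375 and 1.37 ± 0.139 CPM in SKMel28, the reverse of ZEB2 above. TCF4, a basic helix-loop-helix factor, had 14.2 CPM in A375 and 0.0109 CPM in SKMel28.

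Genes of the neural crest stem-like state had no common direction: 9 of 18 tested (50%) were higher in A375 and 9 (50%) in SKMel28, near the 42.4% and 40.5% of all genes, with a median of 0.10. SOX9, the chondrogenic and neural crest factor often high where SOX10 is low, had 30.2, 27.3 and 28.8 CPM in A375, against 1.67, 1.28 and 1.43 CPM in SKMel28. NES, which encodes the intermediate filament nestin, had 125 ± 2.54 CPM in A375 and 4.06 ± 0.250 CPM in SKMel28, and SLITRK6, a neuronal membrane protein, 36.9 ± 1.12 CPM in A375 and 1.95 ± 0.199 CPM in SKMel28. NGFR, the low-affinity neurotrophin receptor that defines this state, went the other way, with 161, 163 and 163 CPM in A375 and 396, 375.1 and 431 CPM in SKMel28. S100B, a calcium-binding protein of Schwann cells and melanocytes, had 10.9 ± 0.449 CPM in A375 and 465 ± 10.3 CPM in SKMel28. RXRG, a retinoid receptor, had 1.60 ± 0.513 CPM in A375 and 47.2 ± 1.79 CPM in SKMel28. The list held strong members on both sides. Its median size of difference was 1.34, against 0.78 over all genes.

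**Figure D3:**
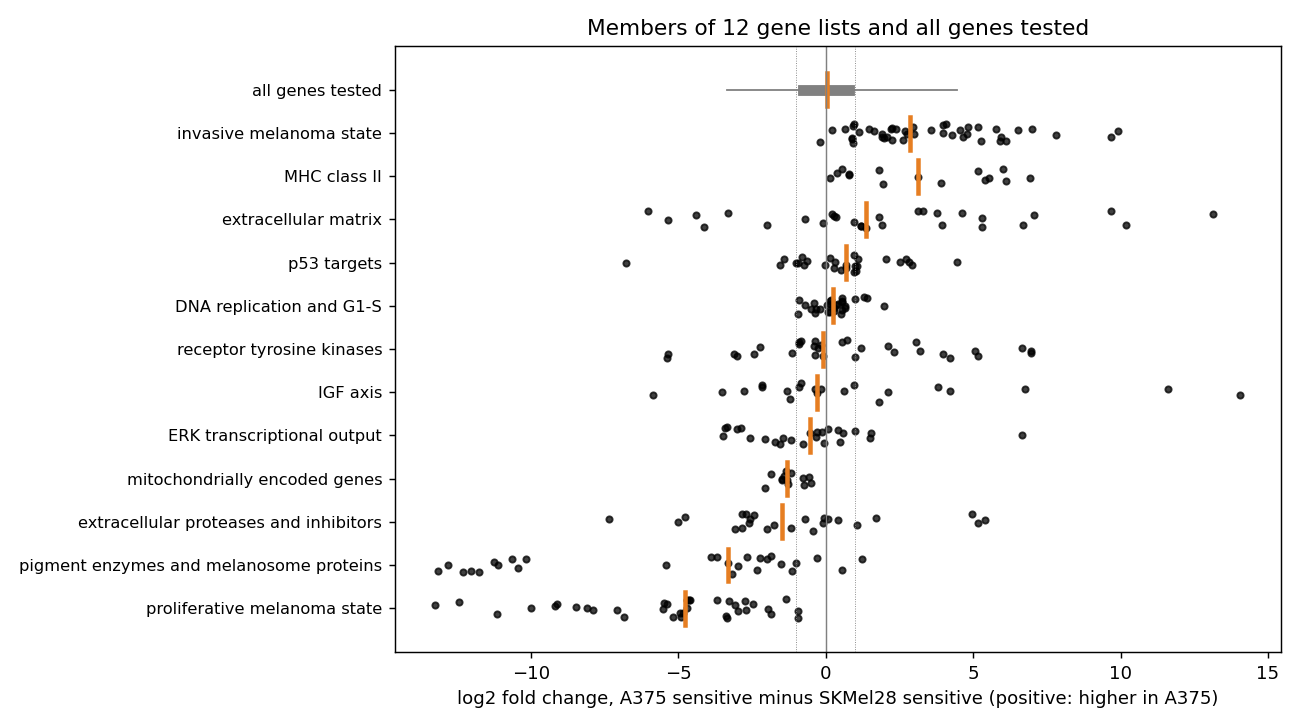
Log2 fold change (A375 minus SKMel28, positive meaning higher in A375) of each tested member of 12 gene lists, 1 point per gene, with an orange line at the median. Genes with no read in 1 line are drawn at their bound against a floor of 3 reads. The top row shows all genes tested (thick bar, middle 50%; thin bar, 5th to 95th percentile), and the medians run from 3.14 for MHC class II to -4.78 for the proliferative state.

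Components of the MAPK pathway, which mutant BRAF keeps active in both lines, differed less than most genes (22 tested, 8 or 36.4% higher in A375, 11 or 50% higher in SKMel28, median size of difference 0.54 against 0.78). The shares of all genes were 42.4% and 40.5%. BRAF itself had 10.7, 11.3 and 11.2 CPM in A375, against 12.8, 14.1 and 13.4 CPM in SKMel28, just apart, with a log2 fold change of -0.28 (edgeR adjusted p = 0.012). With library size alone as the scaling, BRAF was at -0.13 and its adjusted p was 0.240. NRAS averaged 92.8 CPM in A375 and 215 CPM in SKMel28. MAP2K1, which encodes MEK1, was on the other side with 117 CPM in A375 and 64.5 CPM in SKMel28, as was the adaptor gene SHC1 (394 CPM in A375, 191 CPM in SKMel28).

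Of 25 genes switched on by ERK activity, 7 (28%) were higher in A375, 4 at least 2-fold, and 16 (64%) in SKMel28, 11 at least 2-fold, with a median of -0.54. The shares of all genes were 42.4% and 40.5%, with 20.3% and 19.9% at least 2-fold. CCND1, which encodes cyclin D1, had 600.3, 605 and 629 CPM in A375, against 2473, 2528 and 2557 CPM in SKMel28 (-2.04 ± 0.03, edgeR adjusted p = 3.25e-41). SPRY4, a feedback inhibitor of receptor signalling, had 50.5, 53.3 and 56.9 CPM in A375, against 178, 168 and 179.5 CPM in SKMel28. DUSP6, the phosphatase of ERK and a common readout of the pathway, was higher in A375, with 175, 188 and 181 CPM against 135, 133 and 139.5 CPM in SKMel28 (0.42 ± 0.04). The members did not move as 1 group. MYC had 19.0 ± 1.10 CPM in A375 and 193 ± 2.47 CPM in SKMel28. The immediate early gene EGR1 had 8.53 ± 0.583 CPM in A375 and 94.6 ± 1.93 CPM in SKMel28. FOSL1, the AP-1 subunit FRA1, had 416 ± 1.86 CPM in A375 and 146 ± 10.7 CPM in SKMel28, and the chromatin protein gene HMGA2 268 CPM in A375 and 133 CPM in SKMel28.

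Of 31 receptor tyrosine kinases tested, 14 (45.2%) were higher in A375 and 12 (38.7%) in SKMel28, close to the 42.4% and 40.5% of all genes. At least 2-fold differences were found for 12 of the 31 in A375 and 6 in SKMel28, against 20.3% and 19.9% of all genes. The 12 in A375 thus exceeded the share of all genes. EGFR, the epidermal growth factor receptor, had 38.9, 41.1 and 40.7 CPM in A375, against 2.40, 2.69 and 2.51 CPM in SKMel28 (3.99 ± 0.09, edgeR adjusted p = 2.35e-35). EPHA2, the ephrin-A receptor, had 644, 639 and 663 CPM in A375, against 5.77, 5.34 and 7.92 CPM in SKMel28. PDGFRB, the platelet-derived growth factor receptor beta, had 16.3, 17.8 and 17.2 CPM in A375, against 0.133, 0.101 and 0.163 CPM in SKMel28. All 3 were separated by more than 10-fold. DDR1, a collagen receptor, had 127 CPM in A375 and 1.01 CPM in SKMel28. Receptors higher in SKMel28 included EPHA4 (10.3 CPM in A375, 83.5 CPM in SKMel28), FGFR4 (5.88 CPM in A375, 27.4 CPM in SKMel28) and MERTK, the relative of AXL (0.418 CPM in A375, 18.5 CPM in SKMel28). ERBB3, the neuregulin receptor, differed by -0.10 (124 ± 3.93 CPM in A375, 133 ± 4.69 CPM in SKMel28), and MET, the receptor of hepatocyte growth factor, had 252 CPM in A375 and 126 CPM in SKMel28.

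The IGF axis, the pathway around which the series was built, showed wide differences in its secreted binding proteins. IGF ligands bind the receptor IGF1R or the insulin receptor, whose signal passes through the adaptors IRS1 and IRS2, while IGF binding proteins hold the ligands in the medium and proteases and stanniocalcins tune that hold. Of 21 members tested, 8 (38.1%) were higher in A375 and 12 (57.1%) in SKMel28, and 7 on each side differed at least 2-fold. The shares of all genes were 42.4% and 40.5%, with 20.3% and 19.9% at least 2-fold. Ligand transcripts were scarce. IGF1 had no read in A375, against 0.333, 0.302 and 0.358 CPM in SKMel28, at least 11.3-fold lower in A375, and IGF2 had 0.0111 CPM in A375 and 0.0109 CPM in SKMel28 and did not pass the low-count filter.

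IGF1R (chromosome 15, 98648539 to 98964530, plus strand, GRCh38) had 85.5, 86.1 and 86.6 CPM in A375, against 153, 169 and 161 CPM in SKMel28, a log2 fold change of -0.90 ± 0.04 (edgeR adjusted p = 7.03e-24). INSR, the insulin receptor, had 11.9, 10.9 and 11.5 CPM in A375, against 16.6, 12.4 and 15.0 CPM in SKMel28 (-0.36 ± 0.10, edgeR adjusted p = 0.00113). With library size alone, INSR was at -0.21 with an adjusted p of 0.0513. IGF2R, which clears IGF2 and carries lysosomal enzymes, had 139, 154 and 146 CPM in A375, against 631, 730.3 and 606 CPM in SKMel28. All 3 receptors were higher in SKMel28, IGF2R by most. The adaptors split. IRS1 had 75.9, 75.7 and 77.0 CPM in A375, against 37.0, 38.8 and 42.9 CPM in SKMel28, higher in A375 by 0.94 ± 0.05. IRS2 had 146, 150.1 and 148 CPM in A375, against 157, 169 and 174 CPM in SKMel28, a difference of -0.17 (edgeR adjusted p = 1.50e-04) that was -0.02 with an adjusted p of 0.588 under scaling by library size alone. GRB10, an adaptor that dampens IGF and insulin receptor signalling, had 2.14, 1.83 and 1.56 CPM in A375, against 108, 106 and 113 CPM in SKMel28, the widest gap among the intracellular members.

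IGFBP4 (chromosome 17, 40443461 to 40457731, plus strand) headed the genes chosen by size of difference in favour of A375. It had 575, 550.0 and 573 CPM in the A375 libraries and no read in any SKMel28 library, at least 17069.5-fold higher in A375. STC2, the stanniocalcin that inhibits the IGFBP4 protease PAPPA, had 47.9, 48.5 and 44.4 CPM in A375, against 0.0333, 0 and 0 CPM in SKMel28. PAPPA itself was low in both, at 1.12 ± 0.290 CPM in A375 and 0.718 ± 0.0269 CPM in SKMel28, and was not called (edgeR adjusted p = 0.109). Of the other binding proteins, IGFBP3, the main carrier in serum, had 95.9, 89.5 and 94.7 CPM in A375, against 24.3, 26.3 and 29.4 CPM in SKMel28. IGFBP5 had 27.6, 28.4 and 31.4 CPM in A375, against 1.77, 2.18 and 2.28 CPM in SKMel28. IGFBP6, which prefers IGF2, had 169.8, 184 and 184 CPM in A375, against 1.00, 1.71 and 2.18 CPM in SKMel28. These 4 binding proteins were higher in A375, as was IGFBP1 at a low level (0.277 CPM in A375, 0.0109 CPM in SKMel28). Higher in SKMel28 were IGFBP2, with 50.6, 52.3 and 50.2 CPM in A375 against 85.2, 92.6 and 94.6 CPM in SKMel28, and IGFBP7, with 31.3 ± 1.99 CPM in A375 and 213 ± 3.60 CPM in SKMel28. The RNA-binding proteins that regulate IGF2 messenger RNA also split, IGF2BP1 with 130.5 CPM in A375 and 30.4 CPM in SKMel28, and IGF2BP2 with 91.5 CPM in A375 and 211 CPM in SKMel28.

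**Figure D4:**
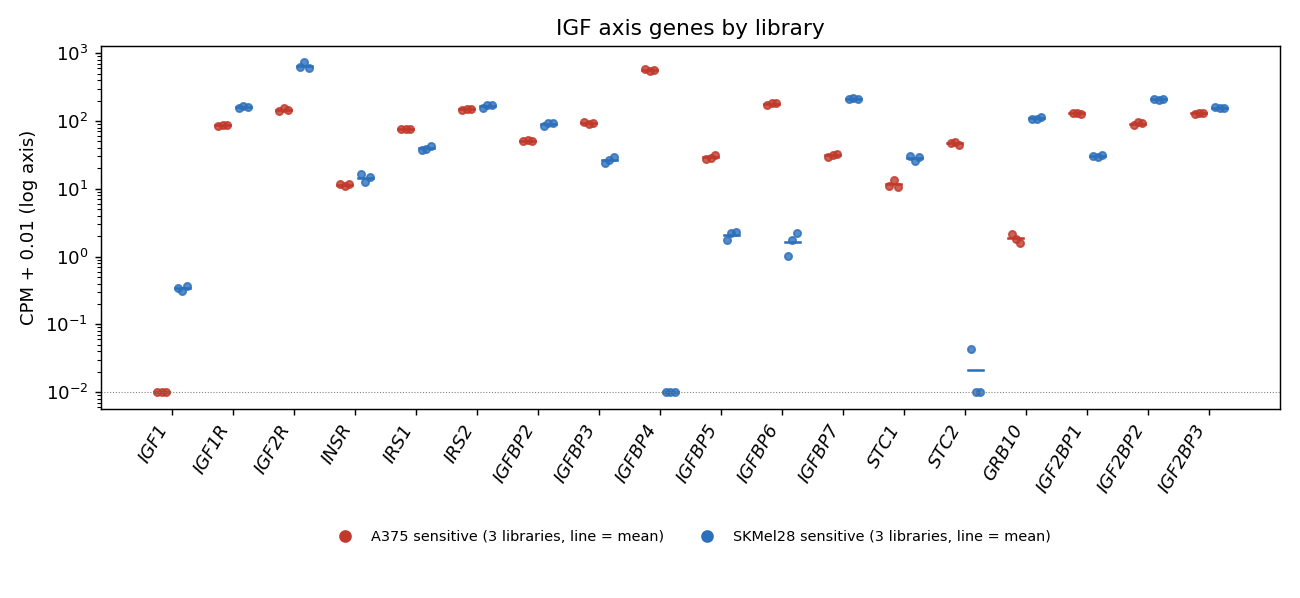
CPM + 0.01 on a log axis for 18 genes of the IGF axis, with A375 in red left of SKMel28 in blue, 1 point per library and a line at the mean. IGFBP4 has at least 550.0 CPM in A375 and no read in SKMel28, STC2 and IGFBP6 are also far higher in A375, and IGF1R, IRS1 and IRS2 differ less than 2-fold.

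Downstream of these receptors, 6 of 21 genes (28.6%) of the PI3K and AKT pathway were higher in A375 and 13 (61.9%) in SKMel28, against 42.4% and 40.5% of all genes. SGK1, a kinase related to AKT, had 33.7, 33.1 and 32.8 CPM in A375, against 401, 413 and 411 CPM in SKMel28. PIK3R3, a regulatory subunit of PI3K, had 14.5 CPM in A375 and 207 CPM in SKMel28. AKT1, a kinase at the centre of the pathway, had 116 CPM in A375 and 188 CPM in SKMel28.

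Of 21 cyclins, kinases and inhibitors of the G1 phase, 7 (33.3%) were higher in A375 and 11 (52.4%) in SKMel28, against 42.4% and 40.5% of all genes. CDKN1A, which encodes p21, had 176, 179.6 and 185 CPM in A375, against 26.8, 26.2 and 28.7 CPM in SKMel28 (2.72 ± 0.04, edgeR adjusted p = 1.19e-40). CDKN2A, which encodes p16 and ARF, had 3.75, 3.11 and 3.43 CPM in A375, against 181, 196 and 201 CPM in SKMel28. Its neighbour CDKN2B, which encodes p15, had no read in A375, against 31.2, 27.2 and 34.1 CPM in SKMel28, at least 1053-fold lower in A375. So the p21 gene was higher in A375, and both genes of the 9p inhibitor locus were higher in SKMel28. The kinase gene CDK6 had 253 CPM in A375 and 132 CPM in SKMel28. Of 27 p53 target genes tested, 17 (63%) were higher in A375, 9 at least 2-fold, and 8 (29.6%) in SKMel28, 4 at least 2-fold, with a median of 0.67. Among all genes, 42.4% and 40.5% were called on these sides, with 20.3% and 19.9% at least 2-fold. MDM2, the ligase that degrades p53, had 119, 119 and 118 CPM in A375, against 87.4, 84.9 and 76.1 CPM in SKMel28. PLK2 had 238 CPM in A375 and 41.3 CPM in SKMel28, and DDB2, a DNA repair protein, 49.0 CPM in A375 and 11.8 CPM in SKMel28. GDF15, a stress cytokine, was the strongest exception, with 6.91 ± 1.32 CPM in A375 and 745 ± 36.9 CPM in SKMel28.

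Genes of DNA replication were higher in A375 for 20 of 30 (66.7%) and in SKMel28 for 8 (26.7%), against 42.4% and 40.5% of all genes. Their differences were small (median 0.26, 3 at least 2-fold higher in A375). MCM2, a subunit of the replicative helicase, had 335 ± 13.0 CPM in A375 and 85.7 ± 3.47 CPM in SKMel28, while MCM5, a subunit of the same complex, had 159 ± 2.19 CPM in A375 and 259 ± 7.47 CPM in SKMel28. Of 25 mitotic genes, 13 (52%) were higher in A375 and 10 (40%) in SKMel28, not far from the 42.4% and 40.5% of all genes. With scaling by library size alone, 6 were higher in SKMel28. KIF11, a spindle motor, had 188 CPM in A375 and 72.0 CPM in SKMel28, and the checkpoint kinase gene BUB1 71.6 CPM in A375 and 141 CPM in SKMel28.

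MHC class II genes, which present antigens to helper T cells, were higher in A375. Of 15 genes tested, 13 (86.7%, against 42.4% of all genes) were higher in A375, 10 of them at least 2-fold, and the median was 3.14. CD74, the invariant chain, had 435, 433 and 442 CPM in A375, against 3.70, 3.26 and 3.68 CPM in SKMel28. HLA-DRA, the alpha chain of HLA-DR, had 74.7, 74.2 and 71.0 CPM in A375, against 1.13, 1.81 and 2.25 CPM in SKMel28. CIITA, the master activator of class II genes, had 16.2, 17.1 and 18.8 CPM in A375, against 0.333, 0.437 and 0.652 CPM in SKMel28. These 3 genes did not overlap between lines. HLA genes are similar in sequence and vary between people, so their counts are uncertain. Of 17 class I genes, 6 (35.3%) were higher in A375 and 7 (41.2%) in SKMel28, near or below the shares of all genes. B2M, the light chain of class I, had 504 CPM in A375 and 358 CPM in SKMel28.

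Of 21 inflammatory genes, 8 (38.1%) were higher in A375, 5 at least 2-fold, and 12 (57.1%) in SKMel28, 9 at least 2-fold. Among all genes, 42.4% and 40.5% were called on these sides, with 20.3% and 19.9% at least 2-fold. IL1B, which encodes interleukin-1 beta, had 20.1, 18.9 and 19.1 CPM in A375, against 82.1, 81.8 and 90.4 CPM in SKMel28 (-2.13 ± 0.06). CXCL8, which encodes interleukin-8, had 13.7, 15.8 and 15.4 CPM in A375, against 242, 238 and 227 CPM in SKMel28 (-3.98 ± 0.05, edgeR adjusted p = 9.39e-44). Both were separated without overlap. ICAM1, an adhesion molecule for leukocytes, had 27.8 CPM in A375 and 308 CPM in SKMel28. PYCARD, the adaptor of inflammasomes, had no read in A375 and 31.0 ± 1.83 CPM in SKMel28. On the side of A375 stood TNFAIP2 (97.5 CPM in A375, 7.41 CPM in SKMel28) and IL1A (5.51 CPM in A375, 0.209 CPM in SKMel28).

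Extracellular matrix genes were higher in A375 for 20 of 29 tested (69%), 17 at least 2-fold, and higher in SKMel28 for 8 (27.6%), 6 at least 2-fold. The shares of all genes were 42.4% and 40.5%, with 20.3% and 19.9% at least 2-fold. COL4A2 and COL5A2, chains of basement membrane and fibrillar collagen, had 567 ± 14.9 and 265 ± 2.55 CPM in A375, and 14.4 ± 1.55 and 2.55 ± 0.480 CPM in SKMel28. BGN, the proteoglycan biglycan, had 41.7, 37.3 and 37.3 CPM in A375 and no read in SKMel28, at least 1169-fold higher in A375. HAPLN1, the link protein of hyaluronan, had 132 ± 0.383 CPM in A375 and 0.0112 ± 0.0194 CPM in SKMel28. These 4 genes were higher in A375 without overlap. FN1, which encodes fibronectin, went the other way with 95.5, 107 and 112 CPM in A375, against 6737, 7298 and 6350.1 CPM in SKMel28 (-6.02 ± 0.11). The summed level of the list, to which FN1 gave the largest part in SKMel28, was 6409 to 6646 CPM in A375 and 10163 to 11327 CPM in SKMel28, although most members were higher in A375. SPP1, the matrix protein osteopontin, had 6.26 CPM in A375 and 259 CPM in SKMel28.

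Of 27 adhesion genes, 13 (48.1%) were higher in A375 and 12 (44.4%) in SKMel28, near the 42.4% and 40.5% of all genes. At least 2-fold differences were found for 6 of the 27 in A375 and 10 in SKMel28, against 20.3% and 19.9% of all genes. The 10 in SKMel28 thus exceeded the share of all genes. ITGB4, the integrin chain of hemidesmosomes, had 311, 327 and 315 CPM in A375, against 0.500, 0.202 and 0.195 CPM in SKMel28. ITGA5, which pairs with beta-1 to bind fibronectin, had 172 CPM in A375 and 51.6 CPM in SKMel28. SKMel28 had more of ITGAV (84.3 CPM in A375, 281 CPM in SKMel28) and ITGB3 (62.0 CPM in A375, 581 CPM in SKMel28), which form the vitronectin receptor, and of the melanoma adhesion molecule MCAM (247 CPM in A375, 1125 CPM in SKMel28). E-cadherin, CDH1, was at 0.268 ± 0.164 CPM in A375 and 10.2 ± 0.191 CPM in SKMel28. Of 24 extracellular proteases and inhibitors, 6 (25%) were higher in A375 and 15 (62.5%) in SKMel28, against 42.4% and 40.5% of all genes. MMP2, a gelatinase, had 289 CPM in A375 and 7.97 CPM in SKMel28, while MMP14, the membrane-bound protease that activates it, had 164 CPM in A375 and 1167 CPM in SKMel28. SERPINE2, protease nexin-1, had 2441, 2435 and 2514 CPM in A375, against 1191, 1181 and 1199.7 CPM in SKMel28.

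Markers of other cell types were read in the same libraries. In bulk samples fewer cells of a type and less RNA per cell cannot be told apart. Over all genes tested, 42.4% were higher in A375 and 40.5% in SKMel28, with 20.3% and 19.9% at least 2-fold. Of the 10 leukocyte markers, 4 passed the low-count filter, of which 1 (25%) was higher in A375, 1 (25%) in SKMel28 and 2 were not called. Higher in A375, as the class II genes were, was LYZ, the lysozyme of myeloid cells (8.66 CPM in A375, 1.30 CPM in SKMel28). PTPRC was at 0.0252 CPM in A375 and 0 in SKMel28, and CD3E was at 0 in both lines, and the part of such cells in the class II result was not tested. The summed level of the list was 38.5 to 43.3 CPM in A375 and 207 to 220.2 CPM in SKMel28, most of it from CD68, a lysosomal glycoprotein (31.0 CPM in A375, 211 CPM in SKMel28). Of 10 fibroblast markers, 8 passed the filter, 5 (62.5%) higher in A375 and 3 (37.5%) in SKMel28, all at least 2-fold. The sum of the list was 47.7 to 52.4 CPM in A375 and 32.0 to 32.6 CPM in SKMel28. Higher in A375, like most matrix genes, were COL6A3 (23.2 CPM in A375, 2.34 CPM in SKMel28), PDGFRB (given above), COL1A1 (4.73 CPM in A375, 2.08 CPM in SKMel28), PDGFRA (2.19 CPM in A375, 0.500 CPM in SKMel28) and DCN (0.428 CPM in A375, 0.121 CPM in SKMel28). Higher in SKMel28 were LUM (2.27 CPM in A375, 22.7 CPM in SKMel28), FAP (0.119 CPM in A375, 2.96 CPM in SKMel28) and COL1A2 (0.0638 CPM in A375, 1.33 CPM in SKMel28). COL3A1 and THY1 did not pass the filter, and the part of these markers in the matrix result was not tested. Of 8 endothelial markers, 7 passed the filter, 3 (42.9%) higher in A375 and 2 (28.6%) in SKMel28, all at least 2-fold. ESAM, TEK and PECAM1 were higher in A375, and ERG and VWF in SKMel28, with a median of 1.05 over the list. PECAM1 overlapped between lines. The sum of the list went the other way, at 6.82 to 7.84 CPM in A375 and 11.5 to 12 CPM in SKMel28. ERG had no read in A375 and 5.19 CPM in SKMel28. Of 10 keratinocyte and epithelial markers, 6 passed the filter, 5 (83.3%) higher in A375 and 1 (16.7%) in SKMel28. The list summed to 170 to 174 CPM in A375 and 96.4 to 100.2 CPM in SKMel28. Most of both sums came from KRT10, another keratin (95.9 CPM in A375, 68.2 CPM in SKMel28). KRT14, a basal keratin, had 24.5, 24.3 and 27.8 CPM in A375, against 0.1, 0.202 and 0.358 CPM in SKMel28, while TP63, DSG3 and KRT1 were at or near 0 in both. The single member higher in SKMel28, the desmosome gene DSP, overlapped between lines and lost its call under 6 of 13 alternatives.

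Further large differences lay in genes with few or no reads in the other line. ANPEP, the surface aminopeptidase CD13, had 409, 406 and 413 CPM in A375, against 0.0333, 0.0672 and 0 CPM in SKMel28. GDA, guanine deaminase, and PNP, purine nucleoside phosphorylase, successive enzymes of purine breakdown, averaged 96.3 ± 2.03 and 79.0 ± 3.59 CPM in A375 with no read in SKMel28, at least 2903-fold and 2381-fold higher in A375. SULF2, an extracellular sulfatase of heparan sulfate, had 162 ± 6.34 CPM in A375 and 0.0112 ± 0.0194 CPM in SKMel28. The other A375 genes chosen by size of difference were GTSF1, CITED4, PNMAL1, NLGN4X, TRHDE and PAGE2, at 39.2 to 92.0 CPM in A375 with no read in SKMel28. In SKMel28 the counterpart set held LXN, the carboxypeptidase inhibitor latexin (72.4 ± 3.87 CPM), TRIM63, a ubiquitin ligase also called MuRF1 (57.4 ± 0.763 CPM), RGS1, a regulator of G-protein signalling (30.7 ± 0.945 CPM), and PRDM7 (54.3 ± 1.89 CPM), a close copy of PRDM9 whose counts are uncertain, all with no read in A375.

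By reads rather than ratio, and with the exceptions of the naming rule, the genes that moved most towards A375 were GAPDH, the glycolytic enzyme (6898 CPM in A375, 5047 CPM in SKMel28), S100A6, a calcium-binding protein (2993 CPM in A375, 426 CPM in SKMel28), THBS1, SERPINE2, the chromatin protein HMGA1, the lamin gene LMNA, RPS6 and HNRNPA1. Towards SKMel28 they were FN1, PMEL, the lysosomal precursor PSAP (437 CPM in A375, 3207 CPM in SKMel28) and 5 mitochondrially encoded genes. HNRNPA1 and RPS6 have many processed copies in the genome, so their counts are uncertain.

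All 13 mitochondrially encoded genes were higher in SKMel28 (against 40.5% of all genes), 9 of them at least 2-fold, with a median of -1.32. All genes with symbols that start with MT-, these 13 and others, together took 1.92% ± 0.0698 of gene reads in A375 and 4.51% ± 0.140 in SKMel28 (SD, n = 3 each, two-sided exact permutation p = 0.1, the smallest that 3 against 3 libraries allow). MT-CO1, a subunit of cytochrome c oxidase, had 3902, 3805 and 3639.8 CPM in A375, against 14457, 13192 and 13791 CPM in SKMel28. MT-CO2, of the same complex, had 1256, 1171 and 1179 CPM in A375, against 5170.4, 4989.6 and 5038 CPM in SKMel28. The libraries of the 2 lines did not overlap for either gene. Nuclear genes of oxidative phosphorylation leaned the same way with smaller differences, 7 of 32 (21.9%) higher in A375 and 20 (62.5%) in SKMel28, 4 at least 2-fold, median -0.36. The shares of all genes were 42.4% and 40.5%. With library size alone the count higher in A375 was 12. NDUFB3 of complex I had 37.6 CPM in A375 and 95.6 CPM in SKMel28.

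Differences varied by chromosome arm. Over 12101 genes with a position (GENCODE release 29, GRCh38) and at least 2 CPM on average, the median log2 fold change was -0.02, with 42.7% of genes higher in A375 and 44.4% higher in SKMel28. On 22q, 14.6% of 288 genes were higher in A375 and 82.3% in SKMel28, with a median of -0.98, and on 2q 12.8% of 483 were higher in A375 and 81.6% in SKMel28, with a median of -0.95. On 11q, 75.3% of 458 genes were higher in A375 and 16.8% in SKMel28, with a median of 0.73. SOX10 (-1.15) lies on 22q and FN1 (-6.02) on 2q, so they share the direction of their arms. On 11q, TYR and CCND1 were lower in A375 while most of the arm was higher.

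**Figure D5:**
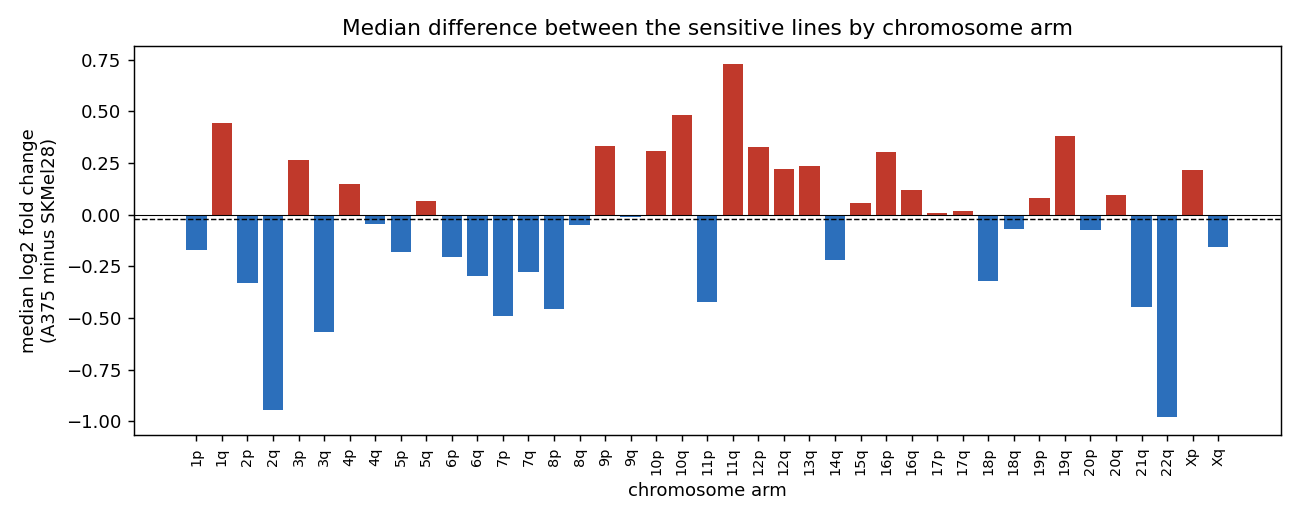
Median log2 fold change (A375 minus SKMel28) of genes at 2 CPM or more on each chromosome arm with at least 20 such genes, red where the median is above 0 and blue where it is below. The dashed line marks the median over all such genes, -0.02. Arms 22q and 2q lie lowest, at -0.98 and -0.95, and 11q lies highest, at 0.73.

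Between resistant A375 and resistant SKMel28, read from the other 6 libraries, 13223 genes (85.3%) were called. Of the 12860 genes called between sensitive lines, 9963 (77.5%) were called in the same direction between the resistant derivatives, 1418 (11%) in the opposite direction and 1479 (11.5%) were not called. Of the 6234 that differed at least 2-fold, 5339 (85.6%) kept their direction. The size of the line difference itself differed between the sensitive and the resistant pair for 8471 of the 12860 genes (65.9%, edgeR adjusted p below 0.05 for the difference of differences). That count was taken only among the 12860 genes, so it does not set them apart from the other genes tested. MITF was at 31.0 ± 1.43 CPM in resistant A375 and 807 ± 34.8 CPM in resistant SKMel28, and AXL at 580.4 ± 12.6 CPM in resistant A375 and 11.7 ± 1.31 CPM in resistant SKMel28. IGFBP4 was at 523 ± 9.40 CPM in resistant A375 with no read in resistant SKMel28. IGF1R was at 48.9 CPM in resistant A375 and 274 CPM in resistant SKMel28, a wider gap than between the sensitive lines (edgeR adjusted p of the difference = 3.15e-26).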

How the data were processed

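The authors deposited raw counts for each gene symbol and library. The 5 htseq-count summary lines in each file entered neither library sizes nor tests. Per the submitters' processing notes, HISAT2, StringTie and GRCh38.p12 were used, whereas the deposited files' own names point to STAR and unstranded counting on hg38. Which aligner made the counts is not settled. In the 6 sensitive libraries, 17.1% to 19.5% of counted reads met no single gene.

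The counts of all 12 libraries were filtered with filterByExpr, scaled by TMM and fitted in edgeR 4.0.16 (R 4.3.3) by robust quasi-likelihood, with a mean for each of 4 groups, which left 8 residual degrees of freedom. The contrast was sensitive A375 minus sensitive SKMel28, two-sided, and a gene was called where its p, adjusted over 15506 genes after Benjamini and Hochberg, was below 0.05. The biological coefficient of variation was 4.20%. CPM values were computed from the counts and TMM-adjusted library sizes. Replicate counts differed by more than sampling noise (chi-square over degrees of freedom 2.81 to 5.67). Replicate numbers did not pair libraries: residual correlations of same-numbered libraries were -0.00417, 0.00526 and 0.00964. Steps were tested on simulated counts.

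The 33 gene lists, their 736 members and the rule for naming genes were chosen with earlier results of these data known. The rule took, in each direction, the 12 largest log2 fold changes among called genes with at least 10 CPM in the higher line and no overlap. It also took the 8 largest differences in CPM in each direction. Both steps passed over XIST, genes of the Y chromosome, and names of the kinds LOC, LINC, MIR, SNOR, RNU, FAM, KIAA, TMEM, ZNF, antisense and open reading frame. Larger differences may lie among those. The rule then added a set of core genes, and for each list the 3 called members of smallest adjusted p in each direction. Other list members named were picked after their values were seen. Alternatives used edgeR and DESeq2 1.42.0. Of 26499 symbols, 23876 matched GENCODE release 29 directly and 688 through another symbol. Chromosome arms were split at approximate GRCh38 centromere positions, taken from general knowledge of that build. Some list members are not reported here.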

Additional observations from a re-analysis of the deposited data

Results flagged for a closer look

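Among the core genes, 3 were called in opposite directions between the sensitive lines and between their resistant derivatives, and edgeR's test of the difference of differences passed for each. NGFR was lower in sensitive A375 (162 CPM) than in sensitive SKMel28 (401 CPM), but had 91.8 ± 3.92 CPM in resistant A375 and 22.3 ± 1.08 CPM in resistant SKMel28. The sensitive minus resistant difference of log2 fold changes was -3.35 (edgeR adjusted p = 2.77e-36). IGFBP5 was higher in sensitive A375 (29.1 CPM) than in sensitive SKMel28 (2.08 CPM), with 0.849 ± 0.0385 CPM in resistant A375 and 4.14 ± 0.355 CPM in resistant SKMel28, a difference of 6.09 (edgeR adjusted p = 2.57e-27). IL1B had 19.4 CPM in sensitive A375 and 84.8 CPM in sensitive SKMel28, against 41.7 ± 0.701 CPM in resistant A375 and 0.0922 ± 0.0816 CPM in resistant SKMel28, a difference of -10.90 (edgeR adjusted p = 1.48e-40). Resistant cells were kept in vemurafenib, so resistance and the drug cannot be told apart. Groups of 3 libraries were not screened for single outlying samples.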

How the results depend on the processing

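Over 13 alternatives (DESeq2 size factors, library size alone, DESeq2, no filter, the 6 sensitive libraries alone, a replicate block, each library left out and no mitochondrially encoded genes), 12475 to 13489 genes were called, against 12860. Of 2828 values for 218 named genes, 2813 kept their direction and side of the threshold, 15 lost their call and 0 changed sign. Many of these genes were chosen for large differences or small adjusted p in the same counts. That choice favours such agreement, which therefore says little about other genes. With the replicate block 12785 were called, 12773 of them shared with the fit without it, although the numbers do not pair the libraries. Leaving out 1 library gave 12634 to 12754. Library size alone moved the median of all genes from 0.03 to 0.18 and the share of calls higher in A375 from 51.2% to 57.3%. It ended the calls of BRAF, INSR, IRS2, MAGEA3 and OSMR, and the cancer-testis antigens higher in SKMel28 numbered 2 with it, against 5. DSP lost its call under 6 alternatives, PECAM1 without A375 replicate 2 (0.57, edgeR adjusted p = 0.321) or SKMel28 replicate 1 or 3, and TFEB without SKMel28 replicate 3 (0.40). Without the low-count filter 5 lineage regulators, not 3, were higher in A375. The difference in the mitochondrially encoded share of gene reads was -2.59 percentage points, and as a share of all counted reads -2.14. Genes with no read in 1 line are limited by depth: the floor of 3 reads was 0.0293 CPM in A375 and 0.0332 CPM in SKMel28. Only 2 lines were compared, so no value describes melanoma lines in general.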

Other observations

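Homeobox genes, which keep a record of the body position of a cell's origin, were compared as a list. Of 34 HOX genes tested, 21 (61.8%) were higher in A375, 15 at least 2-fold, and 8 (23.5%) in SKMel28, 7 at least 2-fold, against 42.4% and 40.5% of all genes, with a median of 0.70. HOXA10 had 19.9, 19.0 and 17.5 CPM in A375 and no read in SKMel28, at least 567-fold higher in A375, and HOXC11 likewise averaged 9.33 ± 0.809 CPM in A375 with no read in SKMel28. HOXC10 had 46.0 ± 3.17 CPM in A375 and 11.5 ± 0.480 CPM in SKMel28. Within the HOXD cluster members differed in direction. HOXD3 and HOXD4 had 0.166 and 0.587 CPM in A375, and 7.56 and 21.4 CPM in SKMel28, while HOXD9 had 9.04 ± 0.742 CPM in A375 and 0.0546 ± 0.0677 CPM in SKMel28. Among 12 SOX factors tested, 7 (58.3%) were higher in A375 and 5 (41.7%) in SKMel28, against the same 42.4% and 40.5% of all genes. SOX11 had 20.8 ± 1.10 CPM in A375 and 0.0546 ± 0.0677 CPM in SKMel28, and SOX6 3.90 ± 0.198 CPM in A375 and 75.3 ± 2.96 CPM in SKMel28.

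Cancer-testis antigens, genes of the germ line that tumours express, were higher in A375 for 9 of 17 (52.9%) and in SKMel28 for 5 (29.4%). The shares of all genes were 42.4% and 40.5%. MAGEC2 had 232, 225 and 219.9 CPM in A375, against 0, 0.0336 and 0.0326 CPM in SKMel28, and PRAME 129.9 ± 2.37 CPM in A375 and 431 ± 6.10 CPM in SKMel28. MAGE genes are similar in sequence, so their counts are uncertain. Glutathione transferases, enzymes of detoxification, were higher in A375 for 4 of 14 (28.6%) and in SKMel28 for 9 (64.3%), against 42.4% and 40.5% of all genes. GSTM1 had 15.0, 19.3 and 17.9 CPM in A375 and no read in SKMel28, while GSTM4 of the same similar family had 17.1 ± 1.27 CPM in A375 and 68.8 ± 1.95 CPM in SKMel28. Of 25 interferon-stimulated genes, 12 (48%) were higher in A375 and 10 (40%) in SKMel28, near the shares of all genes. MX2, an antiviral GTPase, had 53.1 ± 0.858 CPM in A375 and 0.0658 ± 0.0652 CPM in SKMel28, and BST2, the tethering factor of viral particles, 0.348 ± 0.0784 CPM in A375 and 110.4 ± 2.35 CPM in SKMel28. Glycolysis and hypoxia genes numbered 14 higher on each side of 30 tested, and cholesterol synthesis genes 11 on each side of 24, also near the shares of all genes, with medians of -0.02 and 0.06.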
